A study of Rattus norvegicus with 30 samples.

Results

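The genes described are 10 known targets of the transcription factor ATF4 that supply cells with amino acids: Phgdh, Psat1 and Psph of serine synthesis, Asns of asparagine synthesis, Shmt2 and Mthfd2 of mitochondrial folate metabolism, Cth of cysteine synthesis, and the transporter subunits Slc7a11, Slc7a5 and Slc3a2. They were chosen by name as ATF4 targets, with earlier results of these data known. The array read 14217 genes by a probe set with a single symbol, and each of the 10 had 1 such probe set. All 10 passed the filter on low signals, so every one was tested.

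ATF4 is made when a stress kinase phosphorylates the initiation factor eIF2α, which slows most translation but favours that of the Atf4 message. The stresses that do this include unfolded protein in the endoplasmic reticulum, lack of amino acids, haem deficiency and double-stranded RNA. ATF4 then switches on genes that import and synthesise amino acids and charge tRNAs, and, under longer stress, genes of cell death such as Ddit3. In liver these genes share serine, glycine and cysteine with the glutathione and methyl group pathways.

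Primary hepatocytes of male Sprague Dawley rats, bought frozen, were cultured on collagen under Matrigel and dosed on day 3 with phenobarbital, a barbiturate that induces drug-metabolising enzymes in liver. The 6 groups were vehicle, 300 µM and 3000 µM phenobarbital, each harvested after 24 h and after 48 h, with 5 wells and 1 array per well in each group. The labels call the vehicle water in one field and culture medium in another, and they name no animals or donors. The replicates were therefore wells, and p-values measure the spread between wells and not between animals.

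Signals had been scaled by the authors to nearly the same trimmed mean on every array, and array medians ran from 348.7 to 424.9. On 2 arrays the spiked hybridization controls stood apart, with a mean log2 signal of 14.14 on array 1 of the 24 h vehicle group and 14.57 on array 4 of the 48 h group at 3000 µM, against at most 13.35 on the other arrays. The second of these also had the highest 3′ to 5′ ratios, 0.26 for Gapdh and 1.91 for actin on the log2 scale, against at most 0.20 and 1.60 on the others. All 11 hepatocyte markers on the array lay at or above the median signal on every array, against 2 of 10 macrophage, 2 of 10 stellate cell and fibroblast, 0 of 8 endothelial, 1 of 6 cholangiocyte and 0 of 7 lymphocyte markers. No signal in the table was at 0.

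Of the 10 genes, 8 rose and Shmt2 fell at 3000 µM after 24 h. After 48 h, 7 rose and Shmt2 again fell. A change was called at an adjusted p under 0.05 in limma, a linear model fitted to the 16596 probe sets that passed the filter. Of all probe sets tested, 17.3% rose and 14.8% fell at 24 h, and 19.5% rose and 19.9% fell at 48 h. The median log2 change of the 10 genes was 0.63 at 24 h and 0.47 at 48 h, against 0.009 and -0.001 over all probe sets tested. In 7 of the 10 genes all 5 treated wells exceeded all 5 vehicle wells at 24 h, as did 13.2% of the probe sets tested, and in 6 at 48 h, as did 11.5%. These 10 were picked as targets of 1 factor, so the counts describe them and are not a test of the list.

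The response at 300 µM was narrower. Psat1, Psph and Slc7a11 rose at 24 h, where 1.72% of probe sets tested rose and 1.27% fell, and Psat1 alone rose at 48 h, where 0.813% rose and 0.723% fell. The median log2 change of the 10 genes was 0.17 at 24 h and 0.11 at 48 h, and none fell.

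**Figure D1:**
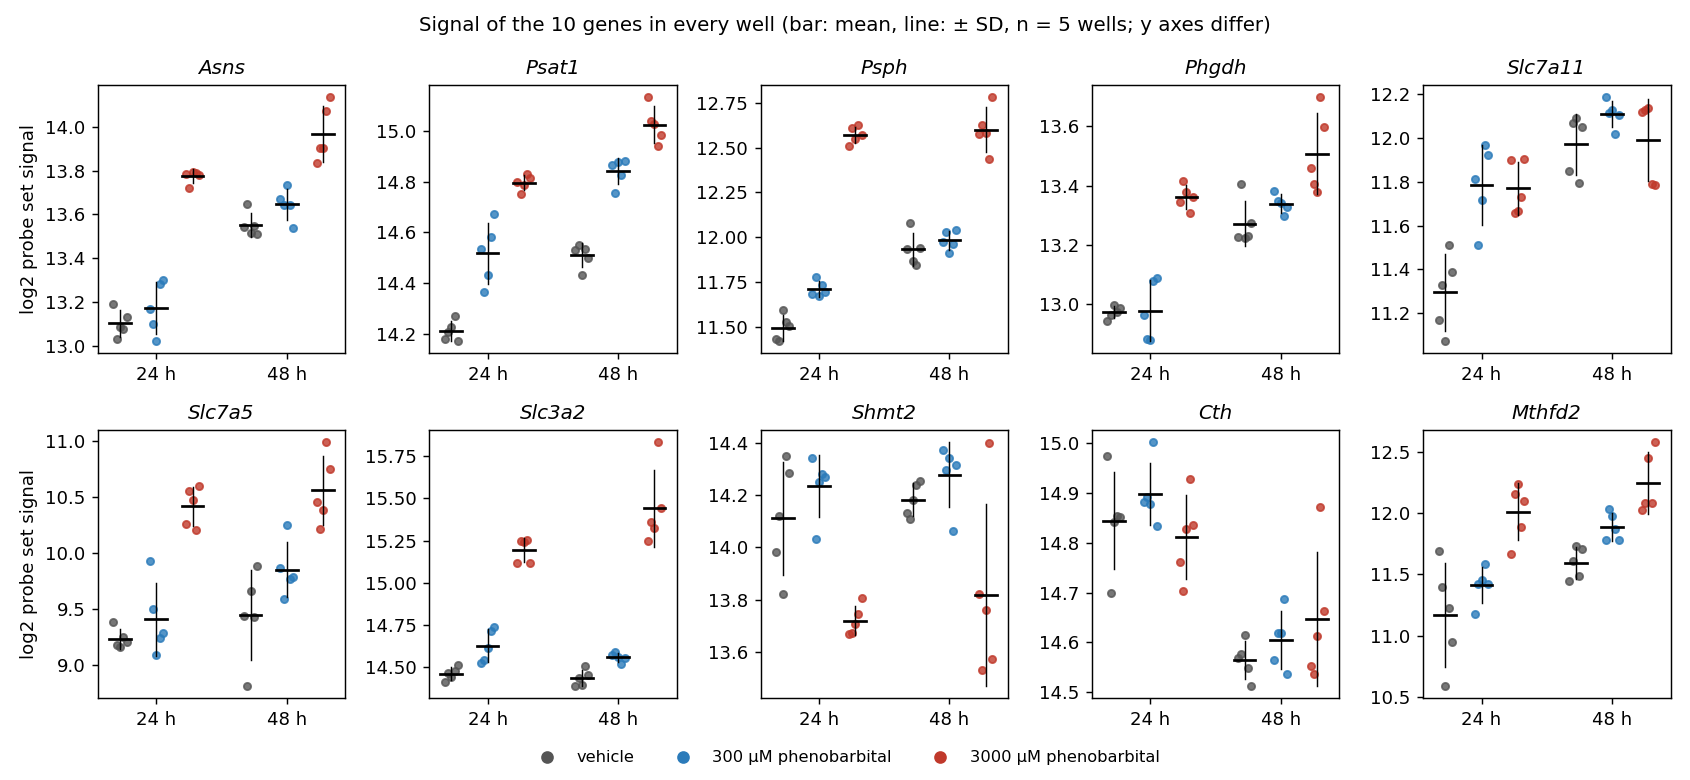
Log2 probe set signal (y axes differ between panels) of the 10 genes in every well, by time and dose, with 1 point per well, a bar at the mean of 5 wells and a line of ± 1 SD. At 3000 µM most genes sit above vehicle at both times, Shmt2 sits below it except in 1 well at 48 h, and Cth stays level with vehicle.

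The serine route starts from the glycolytic intermediate 3-phosphoglycerate, which Phgdh oxidises, Psat1 transaminates and Psph dephosphorylates to serine. All 3 genes rose at 3000 µM at both times. Psph rose the most of the 3 and Phgdh the least.

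Psph, the phosphatase of the last step (NCBI gene 304429; chromosome 12, 32527091 to 32541182 in the rat assembly GRCr8), had signals of 2756, 2737, 3088, 2950 and 2905 in the 24 h vehicle wells. At the same time the wells at 300 µM read 3285, 3512, 3258, 3399 and 3310, and those at 3000 µM read 5824, 6239, 5980, 6311 and 6081. The groups at 24 h did not overlap, and the order was vehicle, 300 µM, 3000 µM. After 48 h, vehicle wells read 3906, 4327, 3735, 3671 and 3930, wells at 300 µM 4013, 4179, 3849, 3984 and 4215, and wells at 3000 µM 6107, 6316, 6133, 5537 and 7043. Vehicle and 300 µM overlapped by then, while every well at 3000 µM stayed above both.

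The log2 change of Psph at 3000 µM was 1.08 ± 0.0581 (SE) at 24 h, a 2.11-fold rise with a limma adjusted p of 1.53e-15. At 48 h it was 0.67 ± 0.0581 (adjusted p = 3.79e-11), and the effect was smaller at 48 h than at 24 h by a test of the difference itself (log2 difference -0.41 ± 0.0821, adjusted p = 0.00407). The adjusted p of that difference was 0.0512 with array medians centred. At 300 µM Psph rose by 0.22 ± 0.0581 at 24 h (adjusted p = 0.0322), a call that was lost in 8 of 21 alternatives, among them leaving out array 1, 2 or 5 of the vehicle group or array 2 or 4 of the dosed group, with adjusted p up to 0.247. Its value at 300 µM after 48 h was 0.05 (adjusted p = 0.829).

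Psat1, the transaminase of the middle step (NCBI gene 293820; chromosome 1, 222623553 to 222646187), was the gene with a call at every dose and time. Its 24 h signals were 18582, 18923, 19217, 19797 and 18488 in vehicle, 23712, 21125, 22138, 24556 and 26120 at 300 µM, and 28472, 27592, 28271, 29106 and 28803 at 3000 µM. At 48 h they were 23696, 24031, 22144, 23715 and 23174 in vehicle, 29875, 27675, 30055, 29020 and 30186 at 300 µM, and 35892, 33625, 33354, 31437 and 32417 at 3000 µM. The 3 groups were separate at each time and rose in order of dose.

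On the log2 scale Psat1 rose at 300 µM by 0.30 ± 0.0471 at 24 h (limma adjusted p = 8.77e-05) and by 0.33 ± 0.0471 at 48 h (adjusted p = 2.85e-05). At 3000 µM it rose by 0.58 ± 0.0471 and 0.51 ± 0.0471, with adjusted p of 1.7e-11 and 1.2e-10. The further step from 300 µM to 3000 µM was 0.28 at 24 h (adjusted p = 2.59e-05) and 0.18 at 48 h (adjusted p = 0.0024). Each of these calls was kept in all 21 alternatives.

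Phgdh, the dehydrogenase that commits carbon to the route (NCBI gene 58835; chromosome 2, 188595700 to 188624789), had signals of 7877 to 8178 in the 24 h vehicle wells, 7526 to 8711 at 300 µM and 10147 to 10941 at 3000 µM. At 48 h vehicle wells ran from 9567 to 10842, wells at 300 µM from 10061 to 10685 and wells at 3000 µM from 10640 to 13300. Only at 24 h did the wells at 3000 µM lie apart from the others. Phgdh rose at 3000 µM by 0.39 ± 0.0545 at 24 h (limma adjusted p = 8.55e-07) and by 0.24 ± 0.0545 at 48 h (adjusted p = 0.000686). Its log2 changes at 300 µM were 0.01 and 0.07, neither of them called.

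Within each well, the log2 difference between 2 members of a route shows whether their signals moved by unequal amounts. Each signal comes from a different probe set, and whether the RNAs themselves changed by unequal amounts was not tested. Pairs that share a route or a complex were set up after the values had been seen, and 12 exact 2-sided permutation tests were made on them, 5 wells at 3000 µM against 5 of vehicle, where 0.00794 is the smallest p possible. At 24 h Psph gained 0.69 on Phgdh and 0.49 on Psat1, and Psat1 gained 0.19 on Phgdh, each with an exact permutation p of 0.00794 (0.0136 after Benjamini-Hochberg adjustment over the 12). At 48 h Psph gained 0.43 on Phgdh (adjusted exact p = 0.0136). The gains of Psph on Psat1, 0.15, and of Psat1 on Phgdh, 0.28, had adjusted exact p of 0.0476 and 0.0317 at 48 h. Both of these were lost in most alternatives, the first in 9 of 13, among them leaving out vehicle array 1, 3, 4 or 5 or dosed array 2, 3 or 5, and the second in 8 of 13, among them vehicle array 2, 3 or 5 or dosed array 1, 2, 3 or 5, where fewer wells also raise the smallest p possible.

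**Figure D2:**
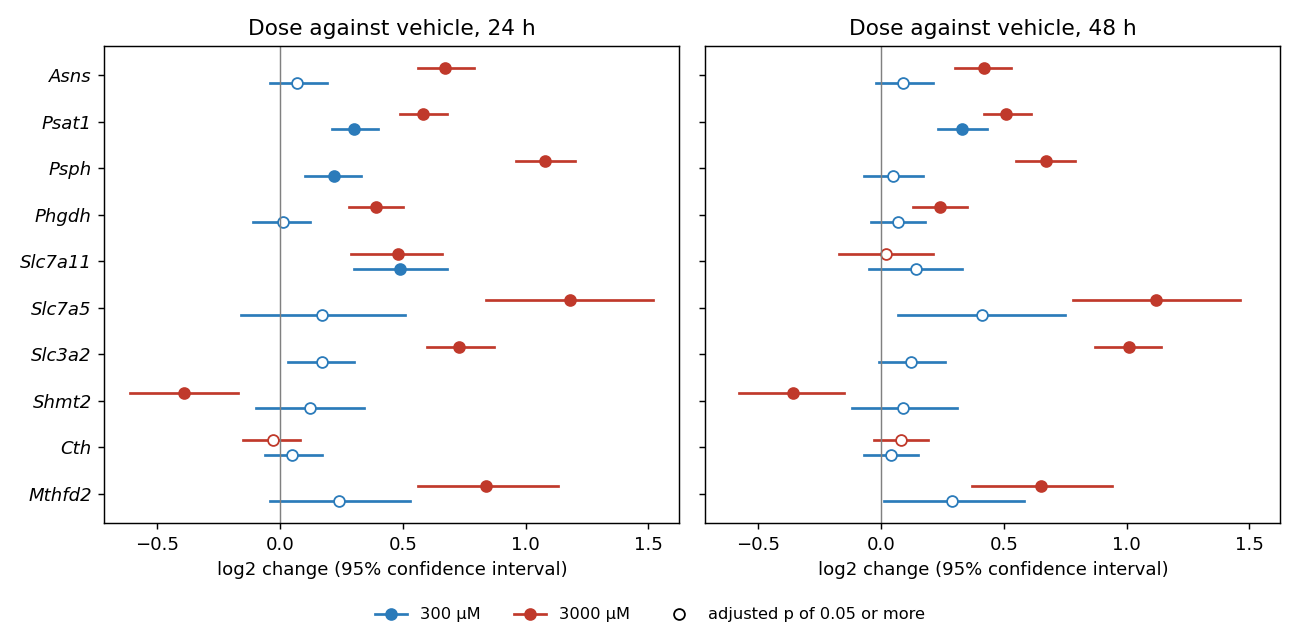
Log2 change against vehicle at 24 h and 48 h for each gene at 300 µM and 3000 µM, with 95% confidence intervals from limma and filled points where the adjusted p was under 0.05. At 3000 µM Slc7a5 at 24 h has the highest change, 1.18, and Shmt2 is the gene below 0 with a call at both times.

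Asns, which makes asparagine from aspartate with nitrogen from glutamine (NCBI gene 25612; chromosome 4, 36752061 to 36769970), is a classic ATF4 target. Its 24 h signals were 9349, 8351, 8689, 8645 and 8977 in vehicle, 9207, 8761, 8307, 9956 and 10082 at 300 µM, and 14117, 13482, 14221, 14177 and 14075 at 3000 µM. At 48 h they were 11916, 12814, 11687, 11965 and 11686 in vehicle, 13058, 12794, 13632, 12786 and 11894 at 300 µM, and 14593, 15307, 15316, 17211 and 18011 at 3000 µM. At both times vehicle and 300 µM overlapped, and all wells at 3000 µM lay above both.

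Asns rose at 3000 µM by 0.67 ± 0.0563 at 24 h (limma adjusted p = 3.95e-11) and by 0.42 ± 0.0563 at 48 h (adjusted p = 2.81e-07). Its changes at 300 µM were 0.07 (adjusted p = 0.633) and 0.09 (adjusted p = 0.56). The difference between its 2 effects at 3000 µM, -0.25 at 48 h less 24 h, had an adjusted p of 0.0625, which passed the threshold in 6 of 31 alternatives. These were quantile normalization, the stricter filter, array weights, and leaving out both arrays that stood apart, array 4 or array 5 of the 48 h group at 3000 µM, with adjusted p down to 0.0272.

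Shmt2 and Mthfd2 both act in mitochondria. Shmt2 splits serine into glycine and a folate-bound carbon unit, and Mthfd2 oxidises that unit further. At 3000 µM the signals of the pair moved in opposite directions at both times.

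Shmt2 (NCBI gene 299857; chromosome 7, 65244247 to 65249580) had 24 h signals of 16197, 17776, 14469, 20872 and 19950 in vehicle, 20742, 16760, 19492, 19902 and 19725 at 300 µM, and 13044, 13057, 13383, 13720 and 14327 at 3000 µM. All wells at 3000 µM lay below all vehicle wells, the closest pair being 14327 and 14469. At 48 h the vehicle wells read 17939, 17645, 18583, 19336 and 19506, those at 300 µM 21189, 20115, 20755, 17085 and 20381, and those at 3000 µM 14467, 11852, 13865, 21613 and 12192. The 21613 came from array 4, which stood apart in the hybridization controls, and the other 4 dosed wells lay below every vehicle well.

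Shmt2 fell by 0.39 ± 0.107 on the log2 scale at 24 h (limma adjusted p = 0.00493) and by 0.36 ± 0.107 at 48 h (adjusted p = 0.0067). Without that array the 48 h change was -0.51 ± 0.0808 (adjusted p = 5.06e-06). Against 300 µM, where its change from vehicle was 0.12 and 0.09 with no call, Shmt2 at 3000 µM was lower by a log2 difference of -0.51 at 24 h (adjusted p = 0.000431) and -0.46 at 48 h (adjusted p = 0.000961).

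Mthfd2 (NCBI gene 680308; chromosome 4, 117368833 to 117380350) had scattered vehicle signals at 24 h, 3306, 2693, 1537, 2394 and 1971, with 2320, 2744, 2801, 3067 and 2747 at 300 µM and 3246, 4574, 4823, 3796 and 4399 at 3000 µM. At 48 h it read 2784, 3123, 3401, 2865 and 3341 in vehicle, 3524, 4186, 4033, 3746 and 3522 at 300 µM, and 4178, 4341, 5612, 4341 and 6118 at 3000 µM. A single vehicle well, array 1, reached into the 3000 µM range at 24 h, and no vehicle well did at 48 h, when 1 well at 300 µM (4186) lay above the lowest at 3000 µM (4178). Mthfd2 rose at 3000 µM by 0.84 ± 0.14 at 24 h (limma adjusted p = 1.61e-05) and by 0.65 ± 0.14 at 48 h (adjusted p = 0.000331). Array 1 was one of the arrays that stood apart, and without both of them the 24 h change was 0.97 (adjusted p = 8.2e-07). At 300 µM all 5 wells at 48 h exceeded vehicle, yet the change of 0.29 ± 0.14 was not called (adjusted p = 0.401). Fitted on the compared groups alone it was called, with an adjusted p of 0.0432.

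Within wells, Mthfd2 gained 1.23 on Shmt2 at 24 h and 1.02 at 48 h at 3000 µM (adjusted exact permutation p = 0.0136 at both times). This gap was kept in all 13 alternatives, with values of 1.13 to 1.40 at 24 h and 0.87 to 1.20 at 48 h.

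Cth, the lyase that releases cysteine in the transsulfuration route from methionine (NCBI gene 24962; chromosome 2, 249634731 to 249661066), had no call against vehicle at either dose. Its wells ran from 26619 to 32196 in vehicle, 29197 to 32822 at 300 µM and 26670 to 31177 at 3000 µM at 24 h. At 48 h the ranges were 23377 to 25103, 23771 to 26379 and 23755 to 29971, and the 29971 again came from array 4 at 3000 µM. The log2 change at 3000 µM was -0.03 at 24 h, with a 95% confidence interval of -0.15 to 0.08, and 0.08 at 48 h, with an interval of -0.03 to 0.19.

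The transporter subunits form heterodimers. Slc3a2, the glycoprotein 4F2hc or CD98, is the heavy chain that carries its partners to the cell surface. With Slc7a5 it makes LAT1, which takes up large neutral amino acids such as leucine, and with Slc7a11 it makes system xc-, which imports cystine in exchange for glutamate.

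Slc3a2 (NCBI gene 50567; chromosome 1, 215033601 to 215048064) had 24 h signals of 21827, 22623, 22255, 22773 and 23336 in vehicle, 23568, 23873, 25039, 26909 and 27323 at 300 µM, and 35495, 38919, 38698, 39087 and 35529 at 3000 µM. At 48 h they were 21425, 22113, 21531, 23250 and 22403 in vehicle, 24348, 24690, 24181, 23471 and 24010 at 300 µM, and 38854, 41995, 41052, 58336 and 44469 at 3000 µM. Every well at 300 µM exceeded every vehicle well at both times by a little, and those at 3000 µM were far above both.

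At 3000 µM Slc3a2 rose by 0.73 ± 0.0665 at 24 h (limma adjusted p = 2e-10) and by 1.01 ± 0.0665 at 48 h, 2.01-fold (adjusted p = 7.16e-14). Without array 4, which gave the 58336, the 48 h change was 0.91 ± 0.046 (adjusted p = 3.3e-16). The changes at 300 µM, 0.17 and 0.12, were not called (adjusted p = 0.214 and 0.481), and the 24 h value was called under quantile normalization, with an adjusted p of 0.0105.

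Slc7a5, the light chain of LAT1 (NCBI gene 50719; chromosome 19, 66843808 to 66872412), had 24 h signals of 666, 579, 570, 607 and 591 in vehicle, 974, 723, 543, 606 and 623 at 300 µM, and 1224, 1499, 1419, 1178 and 1546 at 3000 µM. At 48 h they were 694, 448, 809, 688 and 945 in vehicle, 934, 767, 1218, 870 and 882 at 300 µM, and 1407, 1190, 1339, 2031 and 1726 at 3000 µM. The vehicle and 300 µM ranges overlapped at both times, and all dosed wells at 3000 µM exceeded all vehicle wells. Slc7a5 had the largest fold rise of the 10 genes at 3000 µM, 2.27-fold at 24 h (log2 change 1.18 ± 0.166, limma adjusted p = 9.55e-07) and 2.17-fold at 48 h (1.12 ± 0.166, adjusted p = 1.62e-06). At 300 µM its 48 h change of 0.41 ± 0.166 was not called (adjusted p = 0.278).

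Slc7a11, the light chain of system xc- and also a known target of Nrf2, the regulator of antioxidant genes (NCBI gene 310392; chromosome 2, 136532912 to 136668560), had another pattern. Its 24 h signals were 2305, 2574, 2153, 2920 and 2683 in vehicle, 3595, 2919, 3372, 4006 and 3887 at 300 µM, and 3820, 3228, 3251, 3395 and 3830 at 3000 µM. At 24 h the 2 doses overlapped, and both lay above vehicle but for the nearly equal 2919 and 2920. At 48 h they were 3693, 4300, 4372, 3552 and 4241 in vehicle, 4665, 4443, 4472, 4154 and 4404 at 300 µM, and 4448, 4481, 4500, 3541 and 3532 at 3000 µM. By then the 3 groups overlapped.

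Slc7a11 rose at 24 h by 0.49 ± 0.0921 at 300 µM (limma adjusted p = 0.00121) and by 0.48 ± 0.0921 at 3000 µM (adjusted p = 0.000118). The doses differed by -0.02 at 24 h, with a 95% confidence interval of -0.20 to 0.17, while Asns, Psat1, Psph, Phgdh, Slc7a5, Slc3a2 and Mthfd2 were all higher at 3000 µM than at 300 µM by then. At 48 h its changes were 0.14 (adjusted p = 0.625) and 0.02 (adjusted p = 0.891). The drop in the effect of 3000 µM between the times, -0.46 ± 0.13, had an adjusted p of 0.0409, and it lost the call in 19 of 31 alternatives, with adjusted p of 0.0226 to 0.112 over all of them. Leaving out any of these arrays ended the call: 24 h vehicle 1, 2 or 3, 48 h vehicle 2, 3 or 5, 24 h dosed 1, 4 or 5, and 48 h dosed 4 or 5.

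Within wells Slc3a2 gained 0.99 on Slc7a11 at 48 h (adjusted exact permutation p = 0.0136), while its gain of 0.26 at 24 h had an adjusted exact p of 0.0693. Slc7a5 gained 0.45 on Slc3a2 at 24 h (adjusted exact p = 0.0238), while at 48 h the gain was 0.11 (adjusted exact p = 0.643).

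Set directly against 300 µM, 3000 µM gave 7 higher genes and 1 lower gene of the 10 at each time. Over all probe sets tested 13.9% were higher and 12.2% lower at 24 h, and 17.9% were higher and 16.9% lower at 48 h. The largest steps were in Slc7a5, 1.01 at 24 h and 0.71 at 48 h, and Psph, 0.86 at 24 h and 0.62 at 48 h, and at 48 h in Slc3a2, 0.88. Without array 4 at 3000 µM the 48 h steps were 0.60 in Slc7a5, 0.66 in Psph and 0.78 in Slc3a2. Of the calls at 48 h, Mthfd2 was near the threshold with a log2 difference of 0.36 (limma adjusted p = 0.0464), lost in 10 of 21 alternatives, among them leaving out array 1, 3, 4 or 5 at 300 µM or 3 or 5 at 3000 µM. The 48 h call of Phgdh, 0.17 (adjusted p = 0.015), was lost in 4 alternatives. Without array 4 at 3000 µM it was 0.12 with an adjusted p of 0.06.

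The vehicle wells themselves changed between the harvests. From 24 h to 48 h, 5 of the 10 genes rose and Cth fell in vehicle, where 4.05% of probe sets tested rose and 3.15% fell. The log2 rises were 0.68 ± 0.0921 in Slc7a11 (limma adjusted p = 5.33e-06), 0.45 ± 0.0563 in Asns (1.39e-06), 0.44 ± 0.0581 in Psph (3.58e-06), 0.30 ± 0.0471 in Psat1 (6.01e-05) and 0.30 ± 0.0545 in Phgdh (0.000435). Cth fell by 0.28 ± 0.055 (adjusted p = 0.00107). In the 5 that rose all vehicle wells at 48 h lay above all those at 24 h, as in 4.56% of probe sets tested, and in Cth all lay below, as in 3.71%. With array medians centred the rise of Psat1 had an adjusted p of 0.0606. Mthfd2 rose by 0.43 without a call (adjusted p = 0.0602). Without the 2 arrays that stood apart the value was 0.56 with an adjusted p of 0.00743, and leaving out array 1 or array 2 of the 24 h vehicle group also gave a call. Slc7a5 (0.21), Slc3a2 (-0.03) and Shmt2 (0.07) had no call.

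The effect of 3000 µM was lower at 48 h than at 24 h in Psph and Slc7a11, and in no member was it higher. Of all probe sets tested, 2.77% had a lower effect at 48 h. Slc3a2 had a difference of 0.27 (adjusted p = 0.0958), which was called without array 1 of the 48 h group at 3000 µM, with an adjusted p of 0.0329. For 300 µM, limma called 0 members and 0% of the 16596 probe sets tested in the difference between the times, while 1 member, Slc7a11 (-0.35), and 1251 probe sets had an unadjusted p under 0.05. These contrasts reuse the vehicle wells, so a rise in vehicle by 48 h enters the effect at both doses.

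**Figure D3:**
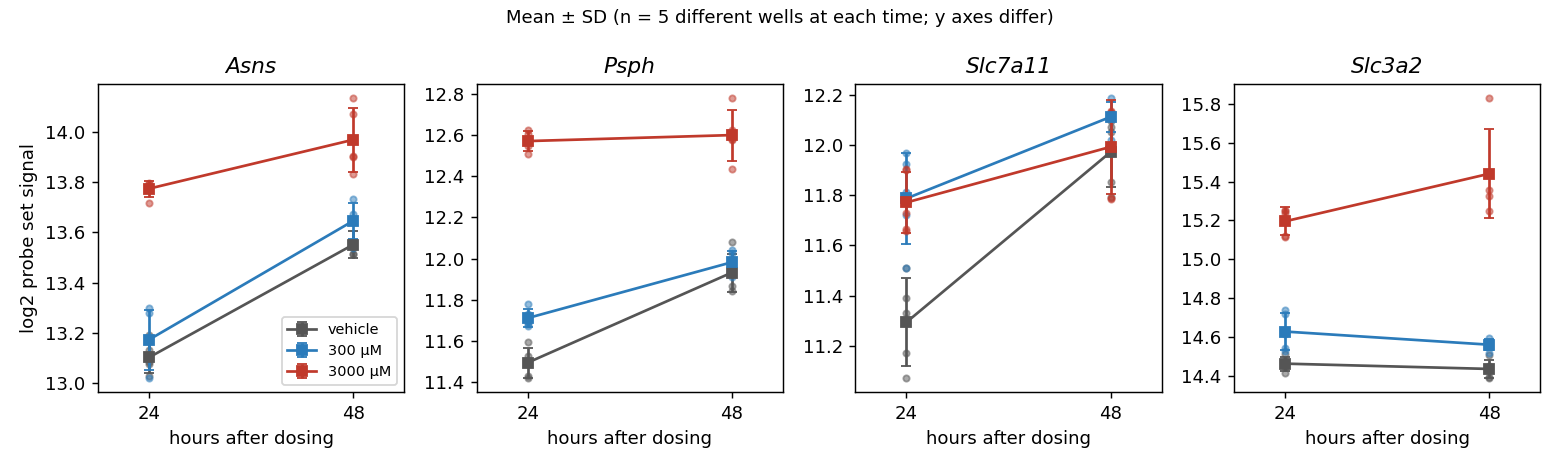
Log2 probe set signal (y axes differ) of Asns, Psph, Slc7a11 and Slc3a2 at 24 h and 48 h after dosing, as mean ± SD of 5 wells with the wells as points, and lines joining groups of the same dose but of different wells. Vehicle rises by 0.68 in Slc7a11 until it meets both doses, while in Slc3a2 vehicle stays level (-0.03) and the distance to 3000 µM is 1.01 at 48 h.

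The RefSeq promoter table for GRCr8 held windows of 250 bases before to 50 bases after the start of all 10 genes. The amino acid response element through which ATF4 acts was searched as its core TGATGNAA, on both strands, and was in 0 of the members' windows and in 3.98% of all 33469 windows. A shorter form, GATGCAA, tried after the first had no match, was in the window of Psat1 and in 2.56% of all windows. The core of the antioxidant response element, TGACNNNGC, was in the windows of Slc3a2 and Phgdh and in 12.1% of all, in Phgdh after the start.

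The stretches around the matches upstream of a start are shown for the genes that had one, Psat1 and Slc3a2, whatever their response. They lie at chr1:222645426-222645492 and chr1:215039677-215039745, both on the minus strand, and capitals mark the match, which reads on the opposite strand.
Psat1: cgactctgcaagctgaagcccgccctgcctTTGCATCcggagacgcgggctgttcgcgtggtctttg
Slc3a2: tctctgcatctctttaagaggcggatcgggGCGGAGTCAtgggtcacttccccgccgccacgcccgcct
A match to letters is a description and not a measured binding site, and these windows leave out introns and more distant elements.

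The regulators of the same stress response were read from a list of 24 genes, 23 of them tested. At 3000 µM 12 rose and 3 fell at 24 h, and 13 rose and 4 fell at 48 h. Atf4 itself rose by 0.34 ± 0.0445 at 24 h and 0.36 ± 0.0445 at 48 h (limma adjusted p = 2.31e-07 and 6.76e-08). Ddit3, which encodes the cell death factor CHOP, rose by 1.29 and 2.12, and Atf3, a stress-induced repressor, by 1.11 and 1.19. Trib3, a pseudokinase that restrains ATF4, rose by 0.93 and 0.97, and Chac1, which degrades glutathione, by 0.74 and 0.50. The secreted stress hormone gene Gdf15 rose by 1.30 and 1.42, and Sesn2, a leucine sensor of the mTORC1 pathway, by 0.79 and 1.23.

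Some regulators went the other way. Fgf21, a hepatic hormone gene known as an ATF4 target, fell by 0.77 at 24 h and by 1.00 at 48 h, and Cebpg, an ATF4 partner, fell by 0.26 and 0.63. Ddit4, an inhibitor of mTORC1, fell by 0.26 (limma adjusted p = 0.0489) and 0.87. At 48 h Eif2ak2, a kinase that phosphorylates eIF2α, fell by 0.51. These 4 were named after their values had been seen. At 300 µM none of the 23 rose at either time, and 1 fell at 24 h, Nupr1, by 0.21 (adjusted p = 0.0178), also named after its value was seen. Of all probe sets tested, 1.72% rose and 1.27% fell at 24 h at this dose, and 0.813% rose and 0.723% fell at 48 h.

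Of 17 other amino acid transporters tested, 3 rose and 2 fell at 24 h and 5 rose and 4 fell at 48 h at 3000 µM. At 24 h these shares, 17.6% and 11.8%, were near the 17.3% and 14.8% of all probe sets tested, and at 48 h they were 29.4% and 23.5% against 19.5% and 19.9%. Slc7a1, which carries cationic amino acids, rose by 0.77 and 0.29, and Slc1a4, which carries neutral ones such as serine, by 0.77 and 0.43. Slc38a2, a sodium-coupled carrier of small neutral amino acids, rose by 0.27 at 24 h and fell by 0.21 at 48 h. At 48 h Slc38a7 (0.65), Slc43a1 (0.54) and the glycine carrier gene Slc6a9 (0.37) also rose. The mitochondrial ornithine carrier Slc25a15 fell by 0.60 at both times, Slc38a4 fell by 0.31 and 0.18, and Slc16a10 fell by 0.53 at 48 h. At 300 µM the taurine transporter gene Slc6a6 rose by 0.57 and 0.67, and Slc38a4 fell by 0.21 at 24 h. Slc38a2, Slc6a9 and Slc6a6 were named after their values had been seen.

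Of 19 neighbouring enzymes of synthesis and folate metabolism, 7 rose and 5 fell at 24 h and 5 rose and 3 fell at 48 h at 3000 µM. As shares these were 36.8% and 26.3% at 24 h, against 17.3% and 14.8% of all probe sets tested. At 48 h they were 26.3% and 15.8%, near the 19.5% and 19.9% of all probe sets tested. Mthfd1l, the mitochondrial formate producer downstream of Mthfd2, rose by 1.14 at 24 h and had a value of 0.36 at 48 h (limma adjusted p = 0.0506). Pck2, the mitochondrial phosphoenolpyruvate carboxykinase, rose by 0.81 and 0.44, and Mthfd2l, a close relative of Mthfd2, by 0.64 and 0.68. The cytosolic folate enzyme gene Mthfd1 rose by 0.36 and 0.21. The glutamine synthetase gene Glul (0.23) and Shmt1 (0.34), the cytosolic counterpart of Shmt2, rose at 48 h. The alanine transaminase gene Gpt2 fell by 0.72 and 1.14, the homocysteine-releasing enzyme gene Ahcy by 0.46 and 0.36, and the folate dehydrogenase gene Aldh1l1 by 0.35 and 0.25. Got2 (-0.21) and Pgam1 (-0.20) fell at 24 h. Mthfd1, Glul, Shmt1, Aldh1l1, Got2 and Pgam1 were named after their values had been seen. At 300 µM limma called 0 of the 19 at either time. Of all probe sets tested at this dose, 1.72% rose and 1.27% fell at 24 h, and 0.813% rose and 0.723% fell at 48 h.

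Enzymes that consume serine, glycine, cysteine or asparagine had more falls than rises called at 3000 µM. Their median log2 change was -0.23 at 24 h and 0.01 at 48 h. Of 14 tested, 1 rose and 7 fell at 24 h, and 1 rose and 6 fell at 48 h. As shares, 7.14% rose and 50.0% fell at 24 h, and 7.14% rose and 42.9% fell at 48 h. Over all probe sets tested 17.3% rose and 14.8% fell at 24 h, and 19.5% rose and 19.9% fell at 48 h. Gnmt, which methylates glycine, fell by 1.20 and 1.60, and Agxt, a transaminase of serine and of glyoxylate, by 1.17 and 1.54. Gldc of the glycine cleavage system fell by 0.91 and 1.29, and Baat, which joins bile acids to taurine or glycine, by 0.66 and 1.16. The single rise was in Dld (0.21), a subunit of the same cleavage system, at 24 h and in Cdo1 (0.60), the cysteine dioxygenase gene, at 48 h, both named after their values had been seen. At 300 µM Cdo1 fell by 0.33 at 24 h. Beside them, 9 of 11 hepatocyte markers (81.8%) fell at 24 h and 7 (63.6%) at 48 h at 3000 µM, and none rose. The summed signal of those markers was 565775 to 746171 in the 24 h vehicle wells against 468190 to 503113 at 3000 µM, and 497400 to 575928 against 415878 to 702188 at 48 h. At 300 µM the sum was 474389 to 575138 at 24 h and 491797 to 566740 at 48 h. The median log2 change of the markers at that dose was -0.21 at 24 h and 0.02 at 48 h. The part of this in the other results was not tested, and in such bulk RNA fewer cells of a type and less RNA per cell cannot be told apart.

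The cytosolic aminoacyl-tRNA synthetases, which charge tRNAs, changed in 1 direction where called. Of 19 tested, 11 rose at 24 h and 12 at 48 h at 3000 µM and none fell. The shares that rose were 57.9% and 63.2%, against 17.3% and 19.5% of all probe sets tested, of which 14.8% and 19.9% fell. Lars1 (leucine) rose by 0.57 and 0.40, Sars1 (serine) by 0.55 and 0.81, Eprs1 (glutamate and proline) by 0.48 and 0.29, Aars1 (alanine) by 0.40 at both times, and Wars1 (tryptophan) by 0.60 at 48 h. At 300 µM 1 rose at 24 h (5.26%), Eprs1 by 0.26, and none at 48 h, where 1.72% and 0.813% of all probe sets tested rose.

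The glutathione and Nrf2 list, whose pathway uses the cystine that Slc7a11 imports, had 19 genes tested. At 300 µM 6 of them rose and none fell at each time, a share of 31.6%, where 1.72% of all probe sets tested rose at 24 h and 0.813% at 48 h. Of the 10 amino acid supply genes 3 rose at 24 h and 1 at 48 h at this dose. At 3000 µM 5 rose and 5 fell at 24 h and 7 rose and 3 fell at 48 h. As shares, 26.3% rose and 26.3% fell at 24 h, against 17.3% and 14.8% of all probe sets tested. At 48 h 36.8% rose and 15.8% fell, against 19.5% and 19.9%. At 300 µM and 24 h Gclc, of the rate-limiting enzyme of glutathione synthesis, rose by 0.40 (limma adjusted p = 0.00778) and Hmox1, the haem oxygenase gene, by 0.46 (adjusted p = 0.00552), both named after their values had been seen. The efflux transporter gene Abcc2 rose at 3000 µM by 0.55 and 1.04, Osgin1 by 0.39 and 0.37, Hmox1 by 0.35 at both times, Srxn1 by 0.20 and 0.44, and the glutathione reductase gene Gsr by 0.18 and 0.45. Taldo1 (-0.25), the thioredoxin gene Txn1 (-0.22), Txnrd1 (-0.21), the glutathione synthetase gene Gss (-0.18) and Pgd (-0.13) fell at 24 h, and Me1 (-0.53), Gss (-0.31) and Taldo1 (-0.14) at 48 h, where Slc48a1 (0.49) rose. Of these, Srxn1, Txn1, Txnrd1, Gss and Pgd were named after their values had been seen. Gclc had values of 0.04 and -0.16 at 3000 µM, neither of them called.

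**Figure D4:**
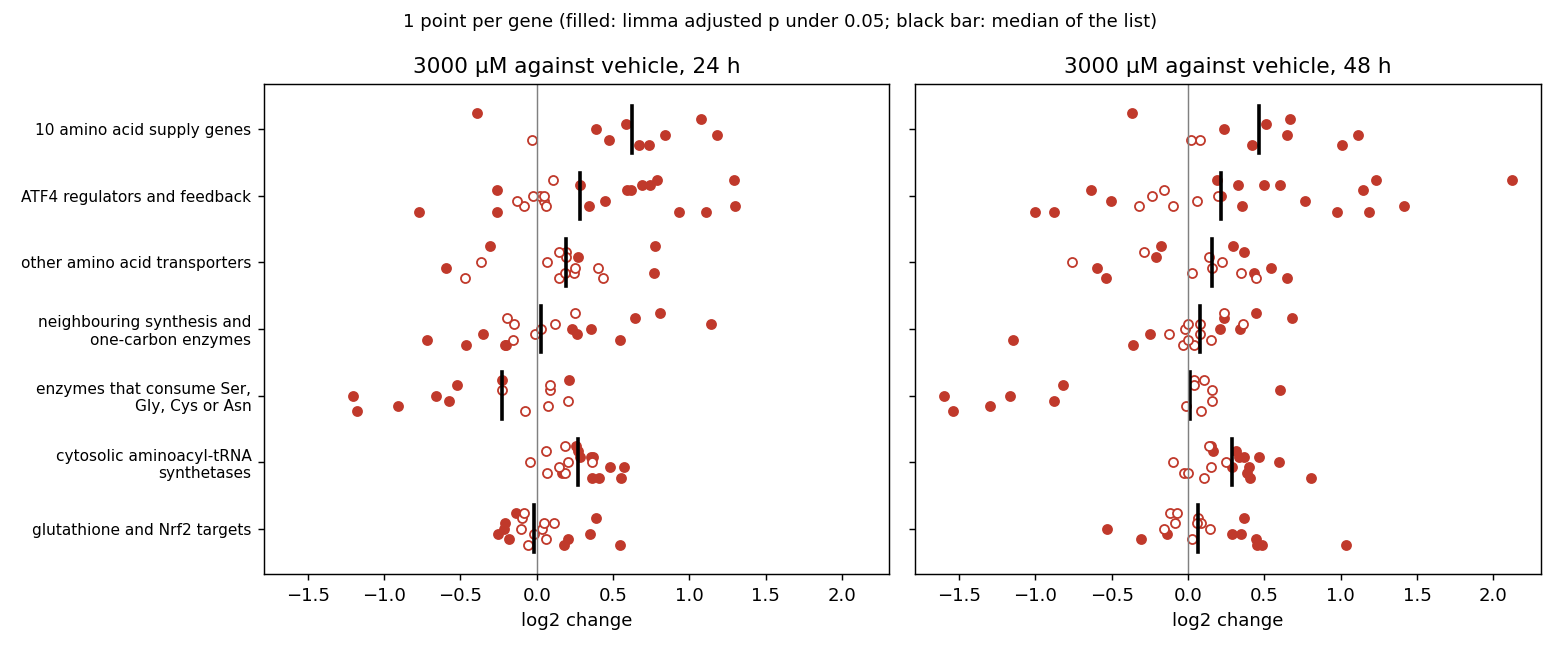
Log2 change at 3000 µM against vehicle for the tested genes of each list at 24 h and 48 h, with 1 point per gene, filled where the limma adjusted p was under 0.05, and a black bar at the median of the list. The median of the 10 amino acid supply genes is 0.63 and 0.47, that of the synthetases 0.27 and 0.29, and that of the consuming enzymes -0.23 and 0.01.

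Over the 6 group means, each centred on the gene's own mean, the 5 genes closest to Asns among 9825 were Wsb1, Ogt, Wdr54, C7h22orf23 and Exph5, with root mean square differences of 0.0377 to 0.0761 log2 units. Mthfd2 was the closest of the other 9 members to Asns (0.0927), followed by Phgdh (0.115) and Psat1 (0.126), and Shmt2 was the farthest (0.472). The 5 closest to Slc7a11 were Ccnb2, Fsd1l, Zc3h18, Ppp1r16a and Gabbr2, with 0.0822 to 0.104, and its closest member was Psat1 with 0.178. With 6 group means from the same 30 arrays, such likeness describes these groups and is not tested.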

How the data were processed

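RNA from 30 wells was measured on a GeneChip rat expression array, 1 array per well. The authors deposited linear probe set intensities, made with MAS5 per the submitters' processing notes, version not given in the sources used here. The mean without 2% at each end was 1500.6 to 1500.7 on every array. Of 31099 probe sets, 57 were controls, 20826 had 1 symbol, 436 several and 9780 none in the annotation used. The number of arrays limits the precision.

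Nothing was added to the signals before log2. Testing was limited to probe sets with at least 1 group mean at or above log2 8.58, the median of all values. limma 3.58.1 (R 4.3.3) fitted 6 group means over 30 arrays with lmFit, contrasts.fit and eBayes (trend, robust), 2-sided, with Benjamini-Hochberg adjustment over 16596 probe sets and a threshold of 0.05; the code was checked on simulated data. A gene was read by its probe set of highest mean. Pair differences used exact permutation tests.

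The members and lists were chosen with earlier results of these data known. The text names all members, up to 4 called genes per list with the largest changes at 3000 µM at each time, and always Atf4, Ddit3, Atf3, Trib3 and Chac1. Motifs and positions come from RefSeq (GRCr8). Alternatives covered normalization, filter, constant, samples, moderation, weights, a block by sets of 6 running numbers in the titles, arrays left out and the mean of a gene's probe sets. Array and replicate numbers follow deposit order and are not known to pair wells.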

Additional observations from a re-analysis of the deposited data

Results flagged for a closer look

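In 4 of the 60 sets of 5 wells, 1 well lay far from the others by Dixon's ratio, the gap to the nearest well over the whole range, with 0.71 as the 95% critical value. Chance gives about 1 in 20, or 3 of 60. They were Asns at 3000 µM and 24 h, where array 2 was lowest (ratio 0.807), Asns in vehicle at 48 h, where array 2 was highest (0.744), Phgdh in vehicle at 48 h, where array 2 was highest (0.722), and Shmt2 at 300 µM and 48 h, where array 4 was lowest (0.758). The 2 vehicle flags at 48 h came from the same array.

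The effect of 3000 µM differed between the times in 2 members by the interaction term in limma. The log2 difference, 48 h less 24 h, was -0.41 for Psph and -0.46 for Slc7a11. In both, the vehicle wells rose between the harvests, as they did in Asns, Psat1 and Phgdh, where the interaction term was not called. The call of Slc7a11 (limma adjusted p = 0.0409) was lost in 19 of 31 alternatives and that of Psph in 1. The difference in Asns, -0.25 (adjusted p = 0.0625), gained a call in 6 of 31, so Slc7a11 and Asns lay near the threshold on either side.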

How the results depend on the processing

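Over 90 member results and their alternatives, 2090 values in all, 1988 kept their direction and their side of the threshold, 43 lost a call, 14 gained one, none of the called values reversed, and 45 values without a call changed sign. The count of members called at 300 µM against vehicle at 24 h was 3, and 2 to 4 over the alternatives. At 48 h it was 1, and 2 with the compared groups alone. For 3000 µM against 300 µM at 48 h the count was 8, and 7 to 8 over the alternatives. For the vehicle change with time it was 6, and 5 to 7. The count of members whose effect of 3000 µM differed between the times was 2; it was 0 with array medians centred, 1 with no filter, with the compared groups alone, with no trend or robust estimation or with the title-number set as a block, and 1 to 3 with single arrays left out. Over all probe sets, the count at 300 µM and 24 h was 496, and not every shift is named here. It was 226 with medians centred, 325 without 300 µM array 2 and 326 without 300 µM array 4. With array weights it was 689, and without the 2 arrays apart 629. At 48 h it was 255, and 124 with medians centred, 482 with the compared groups alone, 615 with array weights, 469 without the 2 arrays apart and 168 without vehicle array 4. For the vehicle change with time it was 1195, and 737 with medians centred and 1521 with array weights. For the effect of 3000 µM between the times it was 688, and 233 with medians centred, 362 with no filter and 319 with the compared groups alone. It was 410 to 441 without 24 h dosed array 1 or 4, 24 h vehicle array 2 or 48 h vehicle array 1 or 3. Without 48 h dosed array 1 it was 973. For 300 µM between the times it was 0, and 3 with the compared groups alone and 1 each with array weights, without the 2 arrays apart and without 24 h vehicle array 3. The cause of these shifts was not tested. The mean of a gene's probe sets was tested over fewer features, 8970. Each member had 1 probe set, so this alternative left the log2 changes of members as they were. No filter, the stricter filter, the compared groups alone and no trend or robust estimation also left them as they were. So did the block, since each set of title numbers held 1 well of every group. Leaving out the 2 arrays apart did the same in comparisons that used neither array. In those cases a call could move only through the estimate of spread or the adjustment, and a kept direction was fixed in advance. The numbers in the titles are not known to pair wells, so the block served as an alternative only.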
